A study of Ovis aries with 26 samples.

Results

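The genes described here encode the machinery that starts and carries out transcription of protein-coding genes: RNA polymerase II, the general transcription factors, the TBP-associated factors (TAFs), the Mediator complex and the SUPT factors. The members were taken by symbol, and the rule uses no measured value, although it was drawn up with earlier results of these data known. It covers POLR2A to POLR2L, and the names GTF2 (with the letter A, B, E, F or H), TAF, MED and SUPT followed by a digit. The rule found 84 of 30186 genes in the table, namely 12 POLR2, 12 GTF2, 23 TAF, 30 MED and 7 SUPT genes. GTF2B, which encodes TFIIB, has no digit after its letter and is not among them. A name rule also takes in genes with other roles. TAF1A to TAF1D belong to the RNA polymerase I factor SL1, TAF15 encodes an RNA-binding protein, TAF5L and TAF6L belong to the SAGA coactivator, and SUPT3H, SUPT7L and SUPT20H are SAGA subunits as well.

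RNA of sheep (Ovis aries) oocytes and embryos was sequenced in 26 libraries of 8 stages. There were 2 libraries of mature oocytes (MII), 4 of the 2-cell stage (2C), 3 of the 4-cell stage (4C), 4 of the 8-cell stage (8C) and 3 of the 16-cell stage (16C). Another 3 came from morulae (Morula), 3 from early blastocysts (EarlyB) and 4 from expanded blastocysts (ExpB). Mature oocytes had been kept with capacitated sperm for 16 h at 38.5 °C in 5% CO2, and all embryos then grew in culture, so every stage after MII is a product of fertilization in vitro. The labels name no breed, genotype, age or treatment, and not how many oocytes or embryos a library holds. Nor do they say whether replicates were separate animals or cultures, so each p-value weighs only the library-to-library spread, which may be technical. Cells were lysed directly and RNA with a poly(A) tail was copied by Smart-seq2, which amplifies cDNA from very small samples. A level given below is thus that of RNA copied through its tail. A change in the tail and a change in the amount of RNA cannot be told apart. Sheep embryos are known to switch on their own genome around the 8C and 16C stages. MII, 2C and 4C (9 libraries) were therefore taken as before activation and Morula, EarlyB and ExpB (10 libraries) as after it, with 8C and 16C on neither side.

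An oocyte stops transcribing before it matures, and the early embryo lives on RNA and protein laid down by the mother. Before it can read its own genome it needs a working polymerase II. At a promoter, TFIID, made of TBP and TAFs, binds DNA with TFIIA and TFIIB, TFIIF brings the polymerase, and TFIIE and TFIIH open the DNA and phosphorylate the polymerase tail. Mediator links this assembly to factors bound at enhancers. RNA levels say nothing directly about how much of each protein is present.

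Gene levels are given as deposited, in FPKM, where fragments are divided by gene length in kilobases and by the assigned total in units of 1e6. The assigned fragments recovered from the steps between low values numbered 27.2 to 35.3 before and 16.0 to 30.4 after activation, in units of 1e6. Marker genes differed between the sides before and after activation, a comparison that does not check the label of each stage. After activation, 8 of 8 oocyte markers were lower, and 4 of 4 genes of genome activation and 6 of 6 trophectoderm markers were higher. By expanded blastocysts the genome activation genes ZSCAN4 and KLF17 were down to means of 0.203 and 0.752 FPKM. The other genes of that list, ARGFX and DUXB, were at 3.88 and 5.59 there, above their 4C means of 0.399 and 0.332. Among the other embryo lists, 3 of 4 inner cell mass markers and 2 of 4 primitive endoderm markers were higher. Markers of cumulus and granulosa cells, which surround the oocyte, were lower after activation for 5 of the 7 tested of 12, and their summed level ran from 25.8 to 562 FPKM before and from 0.992 to 44.6 after. Summed sperm markers reached 1.5 FPKM before and 10.7 after, and summed blood cell markers 21.2 and 13.8. The sum of all FPKM values lay between 419071 and 511956 before and between 586848 and 682165 after. Mitochondrial protein genes held 1.37% to 3.67% of it before and 7.19% to 18.0% after. The part of these shifts in the results below was not tested, and in whole embryos fewer cells of a type and less RNA per cell cannot be told apart.

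Differences between stages were fitted with limma on log2(FPKM + 1) over the 15766 genes that reached 1 FPKM in 2 or more libraries. A gene was called where its Benjamini-Hochberg adjusted p was under 0.05 and its difference at least 1 on that scale. Genes around or under 1 FPKM show less than their true change on it. Of the 84 members 83 were tested. The exception was MED12, which stayed between 0 and 0.633 FPKM in every library.

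The machinery did not move in 1 direction across genome activation. Of the 83 members tested, 21 were called higher and 19 lower after activation, or 25.3% and 22.9%, beside 34.1% and 18.9% of all genes tested. On this scale the share called higher lay below that of all genes and the share called lower lay near it. The median difference was 0.08 on the log2(FPKM + 1) scale for the members and 0.50 for all genes. The balance moved with the scale: the members' counts were 18 higher and 31 lower when every library was rescaled to the same sum (TPM scale), 17 and 25 under median-ratio scaling, and 15 and 24 after quantile normalization. The median of all genes was then 0.29, 0.35 and 0.11. Of all genes, 5351 were higher and 4356 lower of 17979 on the TPM scale, and 4610 and 3523 of 15372 under median-ratio scaling. After quantile normalization they were 3840 and 4107 of 15766. These counts of all genes also apply to the groups of members below. With the morula as the only stage after activation, 22 members were higher, 19 of them among the 21, and 7 were lower, 6 of them among the 19, so most of the lower calls rest on the blastocyst stages. Of all 15766 genes, 5206 were higher and 2559 lower with the morula alone, so the members' share lower then lay below that of all genes. The 13 lower calls lost with the morula alone were those of GTF2A1, GTF2F2, GTF2H2C, GTF2H3, MED6, MED10, MED21, POLR2K, TAF1A, TAF1B, TAF5, TAF12 and TAF13.

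**Figure D1:**
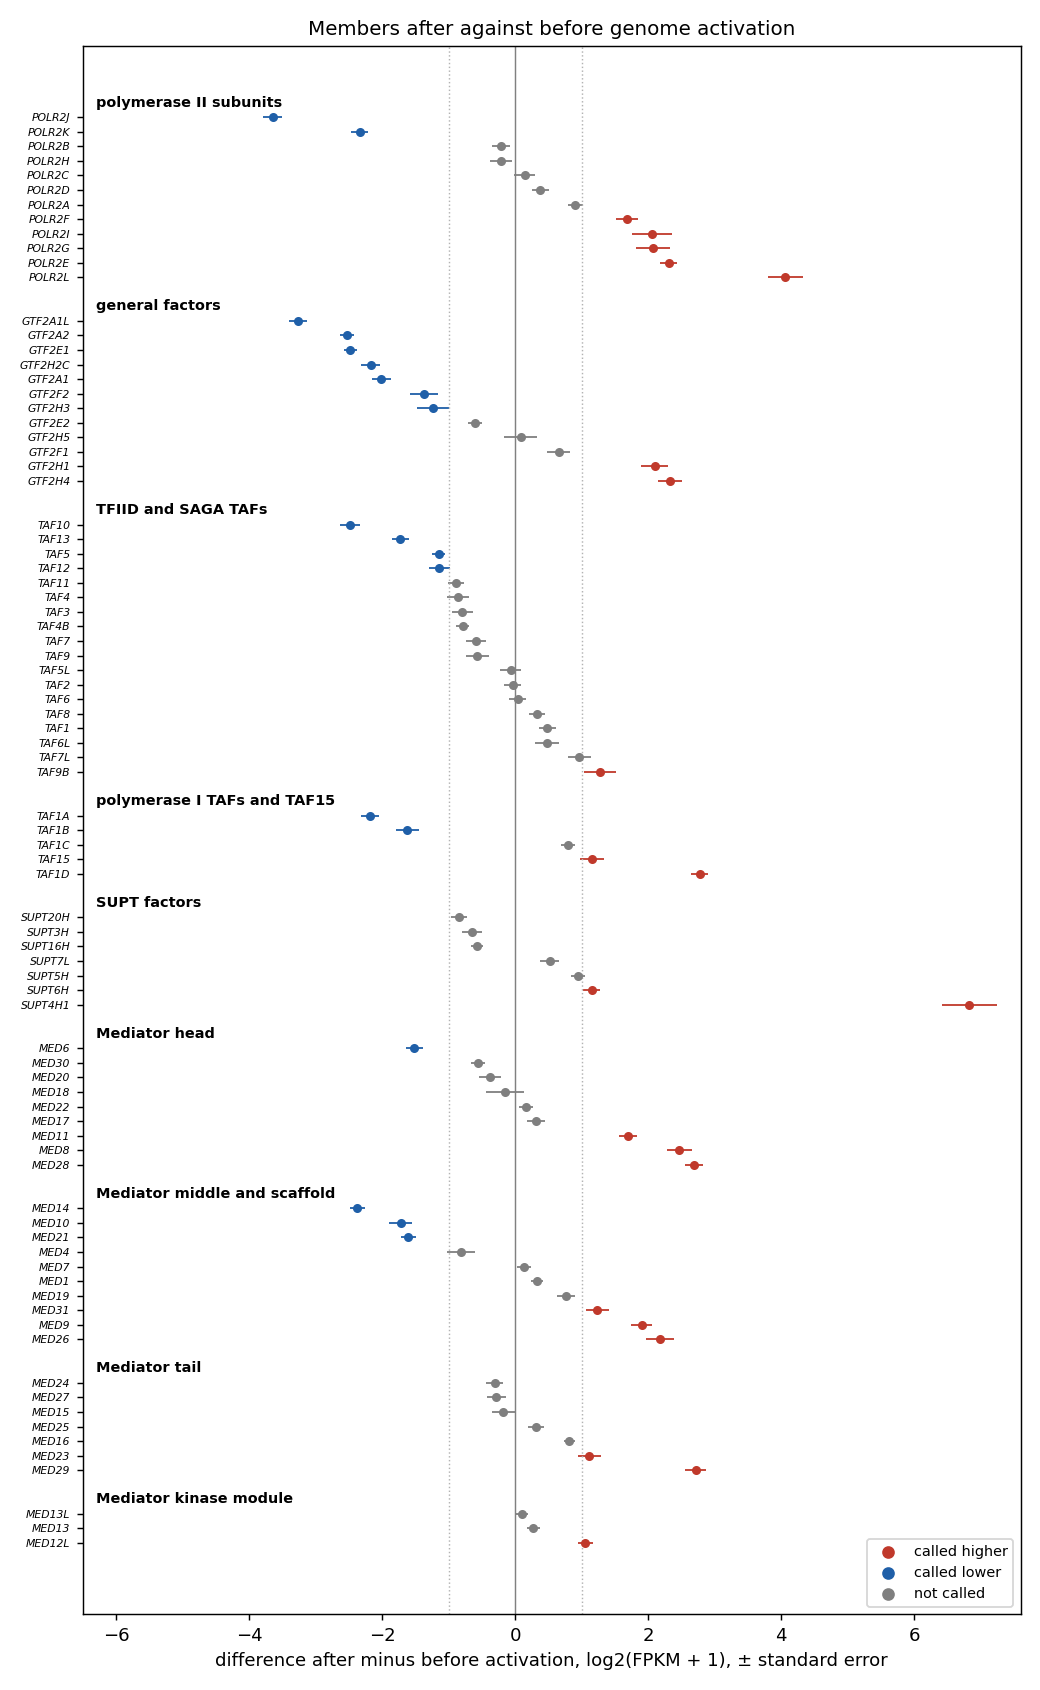
Difference after minus before genome activation for the 83 tested members, on the log2(FPKM + 1) scale with its standard error, grouped by complex; red points were called higher, blue points lower and grey points were not called. Every group but the Mediator tail and kinase modules and the SUPT factors holds both red and blue points, with SUPT4H1 at 6.83 and POLR2J at -3.65 as the ends of the range.

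Within RNA polymerase II, 5 of the 12 subunits were higher after activation (POLR2E, POLR2F, POLR2G, POLR2I and POLR2L). Another 2 were lower (POLR2J and POLR2K) and 5 were not called (POLR2A, POLR2B, POLR2C, POLR2D and POLR2H). The shares higher and lower, 41.7% and 16.7%, lay near the 34.1% and 18.9% of all genes. The same counts of 5 and 2 were found on the TPM scale, under median-ratio scaling and after quantile normalization. The subunits that RNA polymerases I, II and III share (POLR2E, POLR2F, POLR2H, POLR2K and POLR2L) were found on either side, with 3 higher and 1 lower.

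POLR2L, a small shared subunit at the assembly base of the enzyme, measured low in every library before activation. It measured 1.33 and 0.784 FPKM in the MII libraries, 2.05, 0.883, 0.237 and 0.235 at 2C, and 4.73, 0.975 and 1.43 at 4C. It then measured 47.3, 49.7 and 37.25 in morulae, 45.0, 61.5 and 55.7 in early blastocysts, and 26.75, 17.1, 16.4 and 17.3 in expanded blastocysts. All 10 libraries after activation lay above all 9 before, and the difference was 4.06 (SE 0.26, adjusted p = 7.8e-13, limma).

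POLR2E, another shared subunit, measured 3.66 to 7.06 FPKM before activation (median 5.51) and 15.3 to 50.1 after (median 35.2), again with no overlap. It rose by 2.31 (SE 0.13, adjusted p = 7.8e-14, limma). POLR2I, which lies near the active site and takes part in proofreading, had 22.6 to 44.4 FPKM before (median 27.15) and 51.3 to 315 after (median 97.1). The groups did not overlap, and the difference was 2.05 (SE 0.30, adjusted p = 1.4e-06, limma).

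POLR2F, also shared by the RNA polymerases, was abundant throughout. It had 74.6 to 147 FPKM before activation (median 75.8) and 124 to 721 after (median 259), with the 2 groups overlapping through 1 MII library. Its difference was 1.68 (SE 0.17, adjusted p = 1.9e-09, limma). POLR2G, which forms the stalk of the enzyme with POLR2D, rose at 2 points. It went from 15.1 and 13.4 FPKM in MII oocytes to 47.8 to 59.2 at 2C, stayed at 49.0 to 72.5 at 4C, and reached 257, 305 and 330 in morulae, before 64.9 to 103 in expanded blastocysts. The groups overlapped through 1 expanded blastocyst library and 1 at 4C. After against before activation it was higher by 2.08 (SE 0.26, adjusted p = 1.1e-07, limma).

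POLR2J and POLR2K went the other way. POLR2J, a core subunit that pairs with POLR2C in assembly, had the highest level of all 84 members in MII oocytes, at 1498 and 877 FPKM. It had 389 to 1498 FPKM before activation (median 552) and 21.5 to 165 after (median 41.3), so that the lowest library before lay above the highest after. It fell by 3.65 (SE 0.15, adjusted p = 1.8e-16, limma), the furthest of the members called lower, and by 2.17 with the morula alone as the stage after. POLR2K, a small zinc-binding subunit shared by the RNA polymerases, had 186 to 323 FPKM before (median 268) and 23.2 to 161 after (median 36.2). It fell by 2.34 (SE 0.12, adjusted p = 1.8e-14, limma), but by 0.94 with the morula alone as the stage after, which is no longer a call. Genes for POLR2J occur as near-identical copies in some mammals, and reads could be split between such copies in counting, so its level is uncertain to that extent.

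POLR2A, the largest subunit, carries the catalytic centre and the tail that is phosphorylated during transcription. Its RNA was scarce: 6.91 and 3.82 FPKM at MII, 1.30, 1.63, 1.10 and 1.47 at 2C, and 1.05, 1.15 and 0.696 at 4C. It reached 6.70, 11.2 and 9.40 in morulae and 7.36, 5.93 and 5.32 in early blastocysts, and was back at 1.55 to 1.74 in expanded blastocysts. Levels at both ends of the series thus overlapped, and after against before activation the difference was 0.91 (SE 0.11, adjusted p = 1.3e-07, limma), short of a call. It passed with 2C and 4C alone as the stages before (1.41), with Morula alone as the stage after (1.70), with a pseudocount of 0.1 (1.20), and without MII replicate 1 (1.02).

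The other uncalled subunits had levels that overlapped between the groups. POLR2B, which forms the active site together with POLR2A, had 46.0 to 85.3 FPKM before and 30.4 to 89.4 after. POLR2C, POLR2D and POLR2H had medians of 25.1, 32.3 and 37.0 FPKM before and 28.2, 24.3 and 29.4 after. Their differences were -0.21 (POLR2B), 0.15 (POLR2C), 0.38 (POLR2D) and -0.21 (POLR2H). With Morula alone as the stage after, POLR2D (1.53) and POLR2H (1.01) were called higher.

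FPKM divides by gene length, and on that basis the subunits of the enzyme were set beside each other. Differences between genes in the tail or in the splitting of reads between copies could remain in these levels. POLR2J, whose level is uncertain through such copies, was the highest subunit from MII to 16C. The subunits form the enzyme in equal numbers, but their measured RNA levels differed widely in the oocyte and less so later. At MII the highest stage mean was 1123 times the lowest (POLR2J at 1188 FPKM and POLR2L at 1.06). The ratio was 607 at 2C (947 without 2C replicate 1, where POLR2L was highest at that stage), then 576 at 4C, with 537 for 8C and 222 for the 16C stage. It was 77.0 in morulae, between POLR2F at 699 FPKM and POLR2A at 9.09, then 42.3 in early and 83.5 in expanded blastocysts. The extremes at MII were thus the subunits that moved furthest in each direction, and these ratios are a description with no test. Leaving out a library, which was tried after the values were seen, moved none but that of 2C by over 1.5 times.

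**Figure D2:**
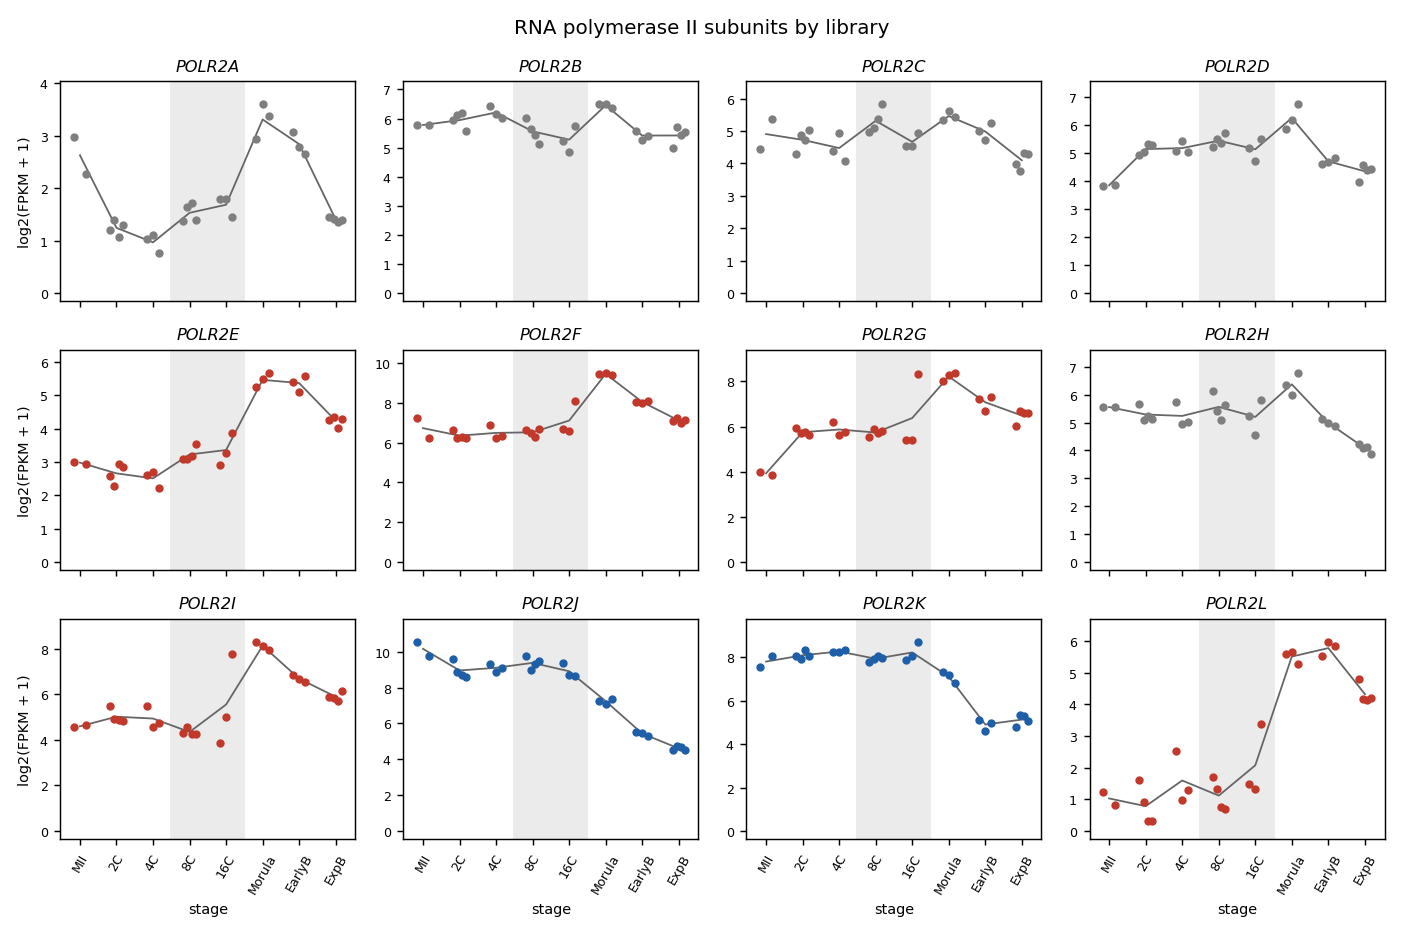
Levels of the 12 RNA polymerase II subunits by stage, as log2(FPKM + 1), with 1 point per library and a line through the stage means; the grey band covers 8C and 16C, and red, blue and grey points mark subunits called higher, lower or neither after against before activation. POLR2J and POLR2K descend from the 16C stage on while 9 of the other subunits peak in morulae, and 1 of the 3 16C libraries stands high for POLR2F, POLR2G, POLR2I and POLR2L.

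Of the 12 GTF2 genes of the general transcription factors, 7 were called lower and 2 higher after activation, or 58.3% and 16.7% beside 18.9% and 34.1% of all genes, and the median difference was -1.31 beside 0.50 for all genes. Between 7 and 8 were lower, and 2 higher, on each of the other scalings, but 3 were lower with Morula alone as the stage after activation.

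TFIIA, which steadies TBP on DNA, was lower in all its parts. GTF2A2, its small subunit, had 772 and 501 FPKM at MII, 358 to 432 at 2C, 286 to 321 at 4C, and 144 to 146 in morulae. It ended at 45.6 to 62.8 in early and 42.4 to 55.7 in expanded blastocysts. No library after activation reached the lowest before, and the gene fell by 2.53 (SE 0.11, adjusted p = 3.8e-16, limma), or by 1.51 with the morula alone as the stage after.

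GTF2A1, which encodes the large subunits, had 62.35 to 88.2 FPKM before activation (median 80.7) and 5.68 to 49.4 after (median 14.1). It was still at 59.3 to 98.2 in the 16C libraries. It fell by 2.01 (SE 0.14, adjusted p = 3.1e-12, limma), but by 0.73 with Morula alone as the stage after, which is not a call. Its paralog GTF2A1L, known from germ cells, had 58.4 to 88.65 FPKM before (median 82.4) and 2.84 to 15.7 after (median 6.72). The groups of GTF2A1L did not overlap either, and it fell by 3.26 (SE 0.14, adjusted p = 3.3e-16, limma).

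The TBP family, none of whose genes matches the name rule, holds proteins that TFIIA binds. TBP itself, the TATA-binding subunit of TFIID, had 18.1 to 32.1 FPKM before and 10.15 to 33.0 after, and its difference of -0.31 was not a call. TBPL1 and TBPL2, the relatives of TBP that also bind TFIIA and are known from germ cells, both fell.

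TBPL1 was at 1334 and 2007 FPKM at MII and at 2653 to 3770 in the 16C libraries. It then measured 702, 748 and 1100 in morulae, 107 to 159 in early blastocysts and 14.7 to 41.5 in expanded blastocysts. It fell by 3.88 (SE 0.17, adjusted p = 1.3e-15, limma), or by 1.32 with the morula alone as the stage after. TBPL2, the oocyte form, had 19.9 to 43.1 FPKM before activation, 3.93, 15.4 and 18.8 in morulae, and 0 to 0.990 in the 7 blastocyst libraries, with 4 of them listed at 0, and it fell by 3.60, or by 1.42 with the morula alone. DR1, a repressor of TBP, fell by 1.95, a call just lost with the morula alone. Of the 6 genes in the list of the TBP family and its negative regulators, 3 were thus lower (50.0%) and none higher. Of all genes, 18.9% were lower and 34.1% higher. At an unadjusted p under 0.05 (limma), all 6 had a negative difference and none a positive one, beside 13625 of all 15766 genes in either direction.

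TFIIE and TFIIF each had 1 subunit lower and 1 not called. GTF2E1 had 60.4 to 78.4 FPKM before and 6.88 to 21.3 after, without overlap, and fell by 2.48 (SE 0.09, adjusted p = 5.1e-17, limma). Its partner GTF2E2 overlapped between the groups at 77.3 to 206 before and 53.95 to 146 after, and differed by -0.60. In TFIIF, GTF2F2 fell by 1.37 (by 0.90 and no call with the morula alone as the stage after), while GTF2F1 differed by 0.65.

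TFIIH, which opens promoter DNA and holds the kinase of the polymerase tail, was divided. Of its 5 members by name, GTF2H1 and GTF2H4 rose, GTF2H2C and GTF2H3 fell, and GTF2H5 was not called. GTF2H1, a core scaffold, had 3.95 to 11.8 FPKM before (median 7.498) and 19.0 to 70.3 after (median 31.1), with no overlap. It rose by 2.097 (SE 0.20, adjusted p = 1.4e-09, limma).

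GTF2H4, which holds the helicase XPB, went from 0.148 to 1.29 FPKM before to 4.73 to 13.3 after. It rose by 2.33 (SE 0.18, adjusted p = 1.8e-11, limma). GTF2H2C had 42.0 to 81.9 FPKM before, 28.2 to 37.5 in morulae and 4.67 to 15.5 in blastocysts, and fell by 2.17 (SE 0.14, adjusted p = 1.4e-12, limma). With Morula alone as the stage after, its fall was 0.91 and not a call. GTF2H2C is by name a copy of GTF2H2, so its reads could have been split with another copy. GTF2H3 fell by 1.24, but the difference was -0.10 with the morula alone as the stage after and -0.98 with 16C counted as after, and neither was a call.

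The remaining subunits of TFIIH were divided in the same way. The kinase CDK7 had 64.7 to 138 FPKM before (median 128) and 6.61 to 22.5 after (median 9.27), with no overlap, and fell by 3.12 (SE 0.12, adjusted p = 1.1e-16, limma). Its cyclin CCNH fell by 1.20. The helicase gene ERCC2 was at or below 0.0914 FPKM in all 9 libraries before activation and measured 1.58 to 4.54 in morulae and early blastocysts and 0.623 to 1.02 in expanded blastocysts. It rose by 1.47 (SE 0.09, adjusted p = 7.7e-13, limma), and by 0.97 with quantile normalization, just under a call. Of the 5 genes in this list 1 was higher and 2 were lower, or 20.0% and 40.0%, beside 34.1% and 18.9% of all genes.

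**Figure D3:**
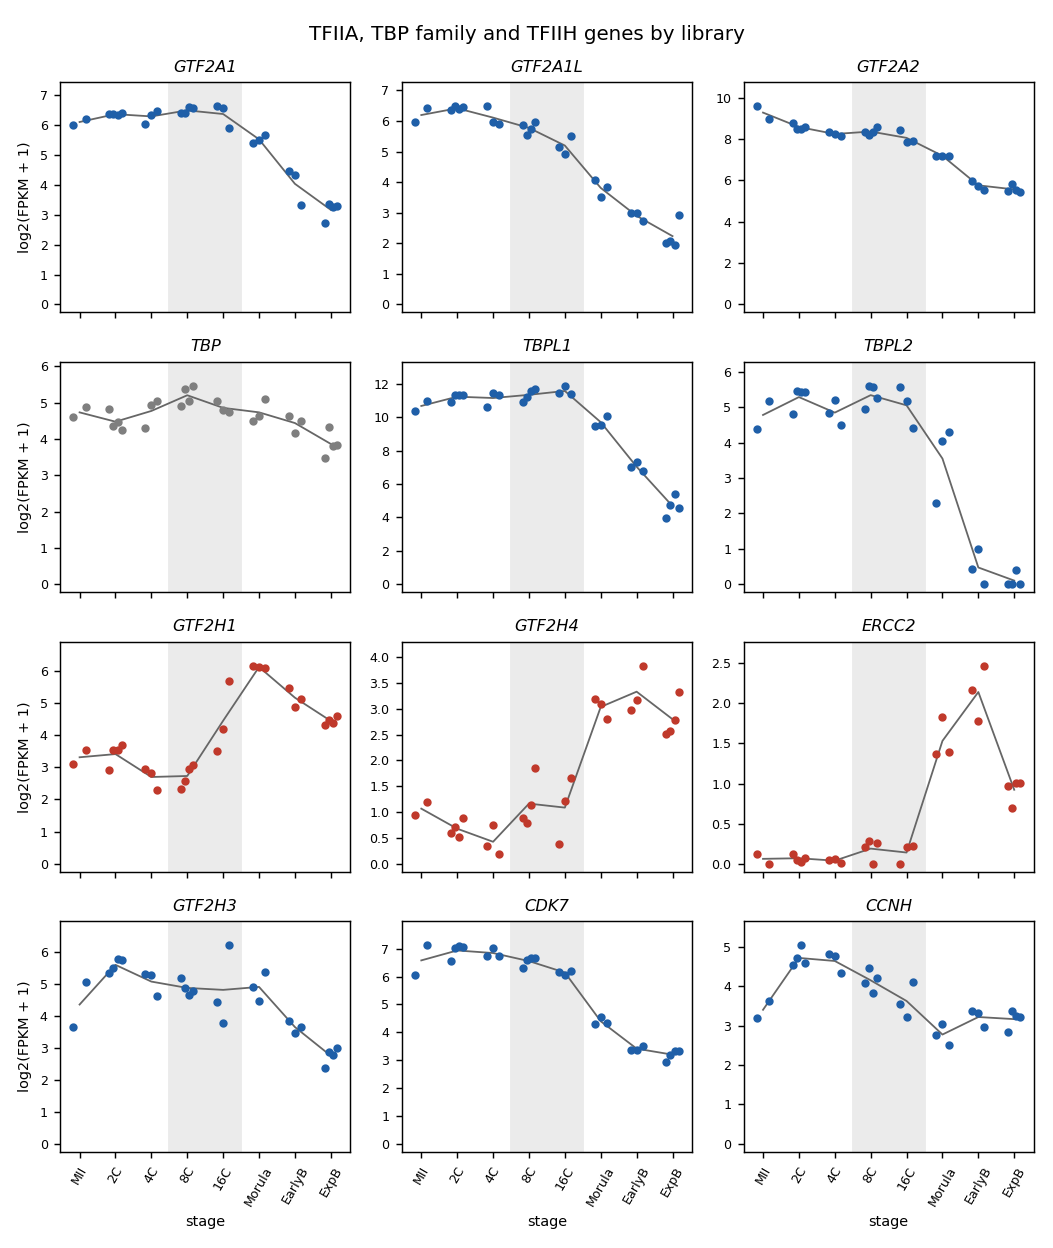
Levels of TFIIA, TBP family and TFIIH genes by stage, as log2(FPKM + 1), with 1 point per library, a line through the stage means and a grey band over 8C and 16C; red, blue and grey mark genes called higher, lower or neither after against before activation. GTF2A1, GTF2A1L, GTF2A2, TBPL1 and TBPL2 descend after 16C while TBP stays near its level, and within TFIIH GTF2H1, GTF2H4 and ERCC2 rise while GTF2H3, CDK7 and CCNH fall.

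Of the 18 TAFs of TFIID and SAGA, 1 was higher after activation (TAF9B) and 4 were lower (TAF10, TAF13, TAF5 and TAF12). The shares were 5.6% and 22.2%, beside 34.1% and 18.9% of all genes, and the median difference was -0.58. The number lower depended on the scale: it was 10 on the TPM scale, 8 under median-ratio scaling and 7 after quantile normalization. The number higher was 2, 1 and 0 on those scales. Of all genes, 4356 of 17979, 3523 of 15372 and 4107 of 15766 were lower there, and 5351, 4610 and 3840 were higher.

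TAF10, shared by TFIID and SAGA, had 59.9 to 96.3 FPKM before activation (median 76.8) and 8.15 to 20.7 after (median 11.9). It was already at 28.0 to 42.8 in the 16C libraries and at 8.81 to 11.6 in morulae. The groups did not overlap, and TAF10 fell by 2.49 (SE 0.15, adjusted p = 2.9e-13, limma). TAF13, a histone-fold TAF that pairs with TAF11, had 122 to 271 FPKM before (median 212) and 28.4 to 163 after (median 43.25), with the morulae overlapping the oocytes. It fell by 1.73, TAF5 by 1.15 and TAF12 by 1.14. With the morula alone as the stage after, the differences were -0.38, -0.34 and -0.03 and no call was left, and the calls of TAF5 and TAF12 were also lost with 16C counted as after (-0.86 and -0.93). TAF11 differed by -0.89, short of a call.

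TAF1, the largest TAF and the scaffold of TFIID, had 4.15 to 7.72 FPKM before and 3.63 to 16.0 after, with the highest levels in early blastocysts, and differed by 0.48. TAF4, another scaffold subunit, and its germ-cell paralog TAF4B differed by -0.86 and -0.79. Both became calls on the TPM scale, under median-ratio scaling and after quantile normalization (-1.07 to -1.42). TAF7 differed by -0.59, and its germ-cell paralog TAF7L, at 0 to 0.258 FPKM before and 0.269 to 4.19 after, by 0.97.

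TAF9B, a paralog of TAF9, had 0.288 to 5.06 FPKM before and 3.13 to 7.86 after. The groups overlapped through 1 of the 4C libraries, and the difference was 1.27 (SE 0.24, adjusted p = 3.9e-05, limma). It was not called with quantile normalization (0.66) or without MII on the side before (0.88). TAF9 had 60.1 to 112 FPKM before and 24.0 to 221 after and was not called (-0.57).

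The SL1 subunits of RNA polymerase I were divided as well. TAF1D rose by 2.77 (SE 0.12, adjusted p = 1.1e-15, limma), from 11.7 to 23.3 FPKM before to 83.8 to 148 after, and stood at 45.9 to 47.5 in the 3 libraries of the 16C stage. TAF1A had 76.25 to 125 FPKM before and 9.58 to 76.0 after, and fell by 2.19 (SE 0.14, adjusted p = 5.0e-13, limma), or by 0.92 with Morula alone as the stage after, which is not a call. TAF1B fell by 1.62 (by 0.79 and no call with the morula alone), and TAF1C differed by 0.79. TAF15, outside SL1, rose by 1.16, a call lost on each of the other scalings (0.69 to 0.87), with the morula alone (0.72) and with 16C counted as after (0.82).

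Of the 29 Mediator subunits tested, 9 were called higher and 4 lower after activation, or 31.0% and 13.8%, with a median difference of 0.28. Both shares lay near those of all genes tested (34.1% and 18.9%), and both kinds of call were found within the same module. The head had 3 higher (MED28, MED8 and MED11) and 1 lower (MED6) of 9. The middle with its scaffold had 3 higher (MED26, MED9 and MED31) and 3 lower (MED14, MED10 and MED21) of 10. The tail had 2 higher (MED29 and MED23) of 7, and the kinase module 1 (MED12L) of the 3 tested. The MED23 call was lost on each of the other scalings (0.68 to 0.82), with the morula alone as the stage after (0.92) and with 16C counted as after (0.62), and the MED31 call after quantile normalization (0.58). The division into modules was made with the values known.

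MED14, the scaffold that joins the modules, had 51.1 and 59.1 FPKM at the MII stage, 45.6 to 50.9 at 2C and 40.4 to 41.6 at 4C. It had 28.8 to 45.0 at 8C and 23.4 to 25.0 at 16C, then 12.5, 9.28 and 13.7 in morulae and 4.83 to 6.40 in expanded blastocysts. Early blastocysts, at 6.66 to 12.3, lay between these. Neighbouring stages overlapped between 4C and 8C and between morula and early blastocyst, and no library after activation reached any before. MED14 fell by 2.37 (SE 0.11, adjusted p = 4.1e-15, limma).

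The other subunits called lower, MED21, MED6 and MED10, had the highest levels of the Mediator subunits before activation. MED21, which forms the hinge of the middle module with MED7, had 399 to 552 FPKM before and 92.3 to 354 after, and fell by 1.60. MED6, a head subunit, had 194 to 374 before and 51.5 to 303 after, and fell by 1.52. MED10 fell by 1.72. In morulae these 3 were still at 106 to 354 FPKM, and the low values were those of the blastocysts. With the morula alone as the stage after, none was called (-0.35 for MED6, -0.60 for MED10 and MED21).

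The subunits called higher included several with low levels before activation. MED28, a head subunit, had 1.02 to 3.69 FPKM before (median 2.57) and 9.96 to 41.8 after (median 16.6), with no overlap. It rose by 2.69 (SE 0.13, adjusted p = 7.3e-15, limma). MED8, also of the head, had 2.17 to 6.31 FPKM before and 20.0 to 33.5 after, and rose by 2.47 (SE 0.18, adjusted p = 1.5e-11, limma).

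MED26, the subunit that binds elongation factors, was at 0.0082 to 0.317 FPKM before activation. It reached 1.57 and 2.27 in 2 of the 4 8C libraries, 1.71 to 6.45 at 16C, 6.11 to 11.5 in morulae and 1.11 to 2.52 in expanded blastocysts. It rose by 2.17 (SE 0.21, adjusted p = 1.3e-09, limma).

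MED29, a tail subunit, measured lower at 2C, 4C and 8C than in the oocyte, and higher again later. It measured 29.3 and 17.5 FPKM at MII, 4.78 to 8.20 at 2C, 3.51 to 5.96 at 4C and 2.88 to 4.36 at 8C. It then measured 11.3, 23.15 and 33.7 at 16C, 79.25 to 91.0 in morulae, 58.05 to 71.4 in early blastocysts and 43.3 to 54.3 in expanded blastocysts. All 10 libraries after activation lay above all 9 before, and the difference was 2.71 (SE 0.16, adjusted p = 1.7e-13, limma).

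MED1, the subunit that binds nuclear receptors, had 10.03 to 15.4 FPKM before and 11.35 to 23.7 after and differed by 0.33. MED13, which ties the kinase module to the rest, differed by 0.28 and its paralog MED13L by 0.10. MED12L had 5.49 to 9.94 FPKM before and 11.3 to 25.6 after, with no overlap, and a difference of 1.05 (SE 0.11, adjusted p = 7.0e-09, limma). It missed a call on the TPM scale (0.60), under median-ratio scaling (0.74) and after quantile normalization (0.77). The call was also lost without MII on the side before (0.90), with 16C counted as after (0.90) and without MII replicate 1 (0.99). The partners of the module were CDK8, which differed by -0.62, its paralog CDK19, and cyclin C. CCNC, the gene of cyclin C, had 0.762 to 3.91 FPKM before and 14.3 to 49.9 after, and rose by 3.35 (SE 0.22, adjusted p = 1.7e-12, limma).

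**Figure D4:**
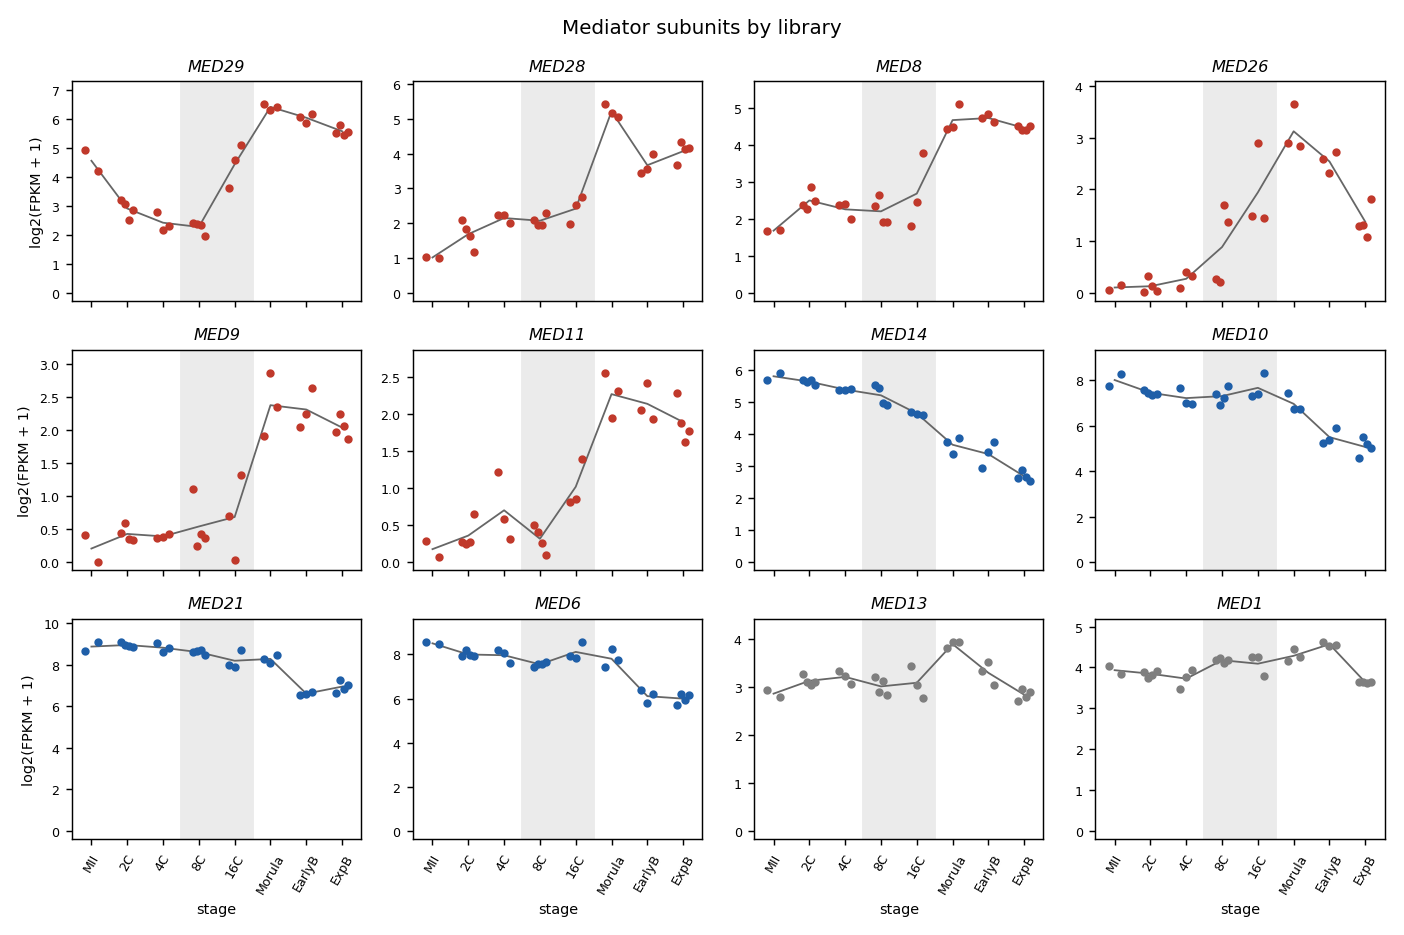
Levels of 12 Mediator subunits by stage, as log2(FPKM + 1), with 1 point per library, a line through the stage means and a grey band over 8C and 16C; red, blue and grey mark subunits called higher, lower or neither after against before activation. MED29, MED28, MED8, MED9 and MED11 stand higher from the morula on, and MED14, MED10, MED21 and MED6 stand lower in blastocysts. MED26 is highest in morulae, and its expanded blastocyst libraries lie within or below its 16C range.

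Of the 7 SUPT genes 2 were higher (28.6%) after activation and none was lower, beside 34.1% and 18.9% of all genes. At an unadjusted p under 0.05 (limma), 3 had a negative difference. On the TPM scale 3 were lower and 1 was higher, beside 4356 lower and 5351 higher of all 17979 genes. SUPT4H1 and SUPT5H encode the 2 parts of DSIF, which travels with the polymerase and takes part in its pausing and release.

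SUPT4H1 moved further than any other member. It measured 0.0554 and 0.0686 FPKM at MII, 1.86, 1.895, 0.829 and 0 at 2C, and 0.767, 4.88 and 11.8 at 4C. The values were 15.3, 56.95, 146 and 168 at 8C and 312, 745 and 186 at 16C. They reached 1009, 1620 and 1317 in morulae, the highest level of any member at that stage. They then dropped to 295, 105 and 206 in early blastocysts and 56.0, 52.7, 79.0 and 75.4 in expanded blastocysts. The lowest library after activation lay above the highest before, and all 4 of the 8C libraries lay above all 3 of the 4C libraries.

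The difference in SUPT4H1 after against before activation was 6.83 (SE 0.41, adjusted p = 2.4e-13, limma). SUPT5H, its partner, had 5.73 to 15.4 FPKM before and 12.5 to 32.3 after, and differed by 0.95 (SE 0.11, adjusted p = 2.2e-08, limma), short of a call. It passed with a pseudocount of 0.1 (1.01), without MII on the side before (1.17) and without MII replicate 1 (1.01). At MII the SUPT5H level was 15.35 and 11.9 FPKM beside almost no SUPT4H1, and in morulae it was 15.65 to 19.9 beside 1009 to 1620 of SUPT4H1.

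SUPT6H, a histone chaperone of elongating polymerase, had 0.729 to 1.54 FPKM before and 1.88 to 6.47 after, with no overlap. It rose by 1.15 (SE 0.12, adjusted p = 9.4e-09, limma), and missed a call on the TPM scale (0.95), under median-ratio scaling (0.90), after quantile normalization (0.49) and with 16C counted as after (0.82). SUPT16H, the large subunit of the chaperone FACT, had 30.85 to 54.2 FPKM before and 18.7 to 40.3 after, and differed by -0.57. Its partner SSRP1 rose by 1.07, a call lost on each of the other scalings (0.62 to 0.82), with Morula alone as the stage after (0.27), with 16C counted as after (0.88) and without Morula replicate 2 (0.99).

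**Figure D5:**
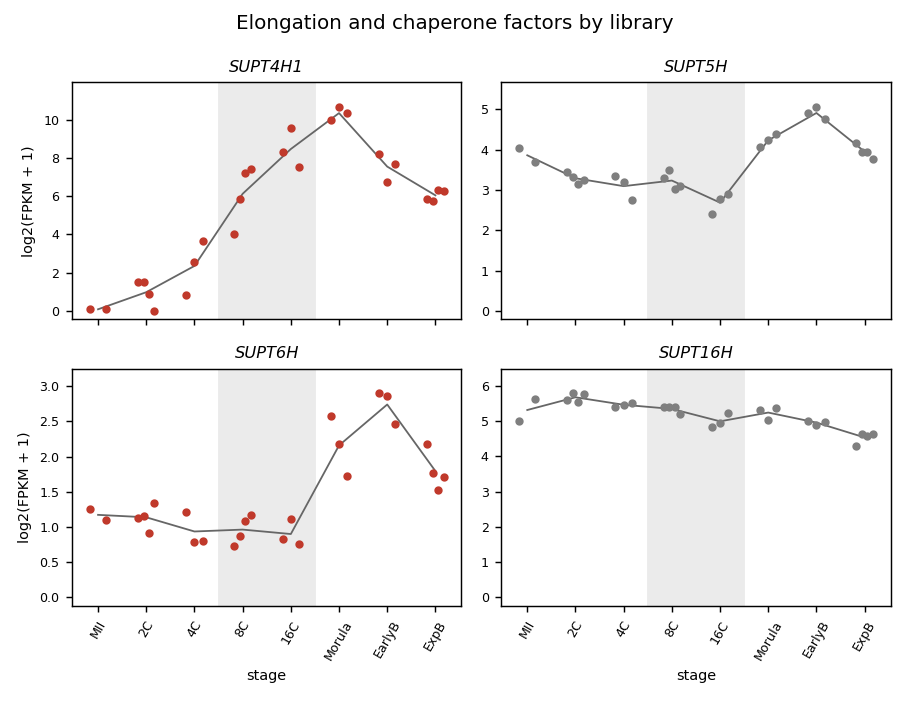
Levels of SUPT4H1, SUPT5H, SUPT6H and SUPT16H by stage, as log2(FPKM + 1), with 1 point per library, a line through the stage means and a grey band over 8C and 16C; red marks genes called higher after against before activation and grey genes not called. SUPT4H1 climbs from near 0 at MII to its highest level in morulae, and the other genes shown span a much smaller range.

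Genes that act on the polymerase after it leaves the promoter were read from lists outside the name rule. Of 15 genes of pausing and of P-TEFb, the kinase that releases paused polymerase, 6 were higher and 1 lower after activation, or 40.0% and 6.7% beside 34.1% and 18.9% of all genes, with a median difference of 0.39. The share higher lay near that of all genes. HEXIM1, an inhibitor of P-TEFb, had 0.267 to 1.32 FPKM before and 13.75 to 62.5 after and rose by 3.66, while its relative HEXIM2 fell by 2.13. NELFE, a subunit of the pausing factor NELF, rose by 2.76. CDK9, the kinase itself, had 21.55 to 52.3 FPKM before and 21.65 to 68.3 after and differed by 0.39.

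Of 19 other elongation factors tested, 5 were higher and 3 lower (26.3% and 15.8%), beside 34.1% and 18.9% of all genes. Their median difference was 0.06. On the TPM scale 3 of them were higher and 5 lower, beside 5351 and 4356 of all 17979 genes. LEO1, a subunit of the PAF1 complex, had 2851 and 1923 FPKM at MII and 1202 to 1676 at 2C and 4C. It was at 599 to 1030 at 16C, at 94.9 to 133 in morulae and at 21.8 to 39.0 in expanded blastocysts. It fell by 4.69 (SE 0.13, adjusted p = 4.4e-19, limma), while CDC73, of the same complex, rose by 2.19 (SE 0.14, adjusted p = 4.0e-13, limma). MLLT3, of the super elongation complex, fell by 3.18 (by 1.60 with the morula alone) and TCEA1, which restarts stalled polymerase, by 2.71.

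Of 18 own subunits of RNA polymerases I and III, 8 were higher (44.4%) and none was lower after activation. Of all genes, 34.1% were higher and 18.9% lower. At an unadjusted p under 0.05 (limma), 13 of these subunits were higher and 2 lower, beside 13625 of all 15766 genes in either direction. Their median difference was 0.78 beside 0.50 for all genes. On the TPM scale 5 were higher and 2 lower, beside 5351 and 4356 of all 17979 genes. POLR3F rose most, by 4.23, from 0 to 1.23 FPKM before to 12.5 to 51.8 after, followed by POLR3E (2.12) and POLR1C (1.70). Of 15 phosphatases of the polymerase tail and assembly factors, 4 were higher and 3 lower (26.7% and 20.0%), near the shares of all genes. Among them RPRD1B rose by 2.61 and CTDSPL by 2.05, and RPAP1, which helps to assemble the enzyme, fell by 1.43. The CTDSPL difference was 0.32 with Morula alone as the stage after and no longer a call. Of 11 SAGA subunits outside the TAF and SUPT names, 3 were higher (SGF29, TADA2B and ATXN7L3) and 3 lower, or 27.3% each. All 3 higher calls were lost with quantile normalization (0.82 to 0.97).

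Paralogs of the same factor were set against each other as log2 ratios of FPKM + 1, with an exact two-sided permutation test over the 9 libraries before and 10 after and Benjamini-Hochberg adjustment over the 8 pairs tested. TBP over TBPL2 shifted furthest, from a mean of -0.40 ± 0.60 (SD, n = 9) to 3.05 ± 1.41 (SD, n = 10), a change of 3.45 (adjusted p = 0.00026, exact permutation test). The ratio was thus near equal before activation and in favour of TBP after it in every library.

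GTF2A1 over GTF2A1L moved from 0.02 ± 0.31 (SD, n = 9) to 1.23 ± 0.52 (SD, n = 10), or by 1.21 (adjusted p = 0.00026, exact permutation test). In this pair both genes fell, and the germ-cell form fell further. TAF9 over TAF9B changed by -1.81 (adjusted p = 0.00058) and TAF7 over TAF7L by -1.56 (adjusted p = 0.00017, exact permutation test, at the smallest unadjusted p of 2.2e-05 that these group sizes allow). In those 2 pairs the less abundant paralog gained ground.

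MED12 over MED12L changed by -0.66 (adjusted p = 0.0091, exact permutation test), a change that was 0.03 with a pseudocount of 0.1, since MED12 lies below 1 FPKM. No change passed the test for TAF4 over TAF4B (0.02, adjusted p = 0.93), MED13 over MED13L (0.11, adjusted p = 0.56) or CDK8 over CDK19 (-0.29, adjusted p = 0.26), all by exact permutation. The libraries of a side come from 3 stages, so the tests compare these stages as a whole. Libraries were permuted singly and weighed alike, although those of a stage resemble each other. The p-values can thus overstate the evidence for a difference between the sides.

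The steps between stages showed when the members moved. From MII to 2C, 2 members were called higher and 4 lower, or 2.4% and 4.8%, beside 4.44% and 2.01% of all genes. On the TPM scale they were 4 and 5, beside 1332 higher and 292 lower of all 17979 genes. POLR2G rose by 1.82 and POLR2D, the other stalk subunit, by 1.29, from 13.3 and 13.7 FPKM at MII to 29.4 to 39.3 at 2C. MED29 fell by 1.65, POLR2A by 1.38, POLR2J by 1.21 and MED20 by 1.14. With only 2 MII libraries, some of these calls rest on 1 of them. The calls of POLR2A and POLR2D held under all 33 other settings. The calls of POLR2G and MED20 were lost without either MII library and those of MED29 and POLR2J without MII replicate 1 (POLR2J also after quantile normalization). Leaving out MII replicate 1 left 1 higher and 1 lower.

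From 2C to 4C no member was called, beside 0.00634% higher and 0% lower of all genes (1 and 0 genes, limma). At an unadjusted p under 0.05 (limma), 3 members were higher and 6 lower, beside 1329 of all 15766 genes in either direction. From 4C to 8C, 2 members were higher and none was lower, beside 0.577% and 0.330% of all genes. These were SUPT4H1, which rose by 3.77 (SE 0.66, adjusted p = 0.011, limma), and MED24, a tail subunit, which rose by 1.13 (SE 0.21, adjusted p = 0.012, limma) from 0.725 to 1.54 FPKM to 2.61 to 3.80. At an unadjusted p under 0.05 (limma), 13 members were higher and 2 lower, beside 2460 of all 15766 genes in either direction. Both calls were lost when only 4C and 8C were fitted, without 4C replicate 1 and without 8C replicate 4 (adjusted p from 0.063 to 0.095, limma), and 4 members were higher when 4C replicate 2 or replicate 1 or 3 of 16C was left out.

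Between 4C and 16C, 6 members were higher and 1 lower, or 7.2% and 1.2%, beside 5.35% and 2.84% of all genes. On the TPM scale 6 were higher and 3 lower, beside 953 and 811 of all 17979 genes. SUPT4H1 rose by 6.11 (SE 0.71, adjusted p = 1.8e-06, limma), MED29 by 2.02, MED31 by 1.83, GTF2H1 by 1.75, MED26 by 1.67 and TAF1D by 1.20. GTF2F2 fell by 1.08 (adjusted p = 0.0496, limma), a call lost under 26 of the 33 other settings, while 3 members were lower without 16C replicate 3. Without 16C replicate 1 the higher members numbered 10, and without 16C replicate 3 the GTF2H1 difference was 1.14. When only 4C and 16C were fitted, GTF2H1 and MED26 were not called (adjusted p = 0.10 and 0.065, limma).

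The 3 libraries of the 16C stage differed from each other. Replicate 3 had 317 FPKM of POLR2G beside 41.3 and 41.6 in the other 2, 216 of POLR2I beside 13.7 and 31.6, 268 of POLR2F beside 102 and 93.9, and 9.48 of POLR2L beside 1.80 and 1.53. For POLR2G that value lay within the range of the morulae. In 13 of the 83 members its FPKM + 1 was more than 2 times that of both other libraries, or 15.7%, beside 9.4% of all genes tested. Its genome activation markers summed to 1716 FPKM beside 317 and 481, and its oocyte markers to 3128 beside 3671 and 3917. What sets this library apart was not tested, and the lowest correlation between libraries of a stage, 0.913, was found at 16C.

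From 16C to Morula, 25 members were higher and 8 lower, or 30.1% and 9.6%, beside 28.1% and 15.0% of all genes. The median difference was 0.28 beside 0.32 for all genes. The counts were 19 and 16 on the TPM scale, 20 and 12 under median-ratio scaling, and 16 and 13 after quantile normalization. Those of all genes were 4353 and 3522 of 17979, 3687 and 2716 of 15372, and 3054 and 3263 of 15766. In RNA polymerase II 9 of 12 subunits were higher and 2 lower (POLR2J and POLR2K, the latter lost without 16C replicate 3 or Morula replicate 3), and 6 were higher on each of the other scalings. The POLR2G difference was 1.84, or 2.81 without 16C replicate 3, and missed the threshold when only 16C and Morula were fitted (adjusted p = 0.051, limma).

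The members that rose most at this step were POLR2L by 3.43, MED28 by 2.79, POLR2I by 2.58, POLR2F by 2.35 and POLR2E by 2.11. Those that fell most were TAF10 by 1.83, POLR2J by 1.67, GTF2H2C and GTF2E1 by 1.52 and GTF2A1L by 1.39. SUPT5H rose by 1.54 and POLR2A by 1.63. Among the 18 TAFs of TFIID and SAGA none was higher and 1 was lower. At an unadjusted p under 0.05 (limma), 3 of these TAFs were higher and 5 lower, beside 10428 of all 15766 genes in either direction.

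From Morula to ExpB nearly all members that were called were lower. Of 83, 38 were lower and 2 higher, or 45.8% and 2.4%, beside 21.8% and 12.1% of all genes, and the median difference was -0.85 beside -0.24. The lower count was 43 on the TPM scale, 30 under median-ratio scaling and 28 after quantile normalization. Of all genes, 4252 of 17979, 2594 of 15372 and 2474 of 15766 were lower on those scales. All 12 RNA polymerase II subunits were lower, by 1.04 (POLR2B) to 2.64 (POLR2J), and 9 to 12 of them on the other scalings. The POLR2B call was lost without ExpB replicate 1 (-0.89) and that of POLR2L without Morula replicate 1 or 2 (adjusted p = 0.055 and 0.063, limma). Of the general factors 8 of 12 were lower, of the TAFs of TFIID and SAGA 6 of 18, and of the Mediator subunits 9 of 29.

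SUPT4H1 fell furthest at this step, by 4.30 (SE 0.66, adjusted p = 8.7e-06, limma). POLR2J fell by 2.64, GTF2A1 by 2.36, POLR2F by 2.34 and GTF2H2C by 2.33. The 2 members that rose were SUPT3H, a SAGA subunit, by 1.37, from 0.878 to 1.78 FPKM in morulae to 4.13 to 6.03, and MED17, a head scaffold of Mediator, by 1.03, from 8.81 to 19.1 FPKM to 23.9 to 32.5. The MED17 call was lost on the TPM scale (0.97) and without Morula replicate 2 (0.77), ExpB replicate 2 or ExpB replicate 4 (0.96 each).

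The same pattern stood in the share of all FPKM held by the 84 members together. It was 0.946% to 1.14% before activation and 0.913% to 1.04% in morulae. It was 0.337% to 0.404% in early blastocysts and 0.226% to 0.304% in expanded blastocysts, below every earlier library. By stage mean, 24 of the 83 tested members were highest in morulae (28.9%, beside 20.1% of all genes), 20 in early blastocysts (24.1% beside 27.7%), 13 at MII (15.7% beside 7.7%) and 11 at 16C (13.3% beside 6.8%). None was highest in expanded blastocysts, beside 14.1% of all genes. These shares are descriptions with no test, and the mitochondrial share of FPKM was highest in the same blastocyst stages. The summed share is weighted to abundant members, such as POLR2J at MII (mean 1188 FPKM) and SUPT4H1 in morulae (mean 1315 FPKM).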

How the data were processed

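The authors deposited FPKM per gene and library. The submitters' processing notes name featureCounts 2.0.1, HISAT2 2.1.0, fastp 0.23.4 and SAMtools 1.9. Genome build, annotation and strand setting: not given in the sources used here, so genes are named by symbol, without positions (83 of 84 member symbols occur in a RefSeq gene table of the assembly ARS-UI_Ramb_v3.0; GTF2H2C does not). Depth came from whole-read steps in low values of small RNA genes (99.7% to 100.0% whole within 0.05 reads, up to 20 reads).

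limma 3.58.1 in R 4.3.3 (lmFit on 8 stage means, contrasts.fit, eBayes with trend, 18 residual and 4.6 prior degrees of freedom) was run on log2(FPKM + 1) and tested on simulated data. After against before is the mean of 3 stage means minus the mean of the other 3. Paralog ratios used exact permutation in scipy 1.17.1. Alternatives were a pseudocount of 0.1, no filter, other scalings, a replicate block, other stage sets and each library left out.

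The members, modules and lists were chosen with earlier results of these data known. Named genes were up to 10 called members per direction after against before, up to 5 in each other contrast, up to 3 per list, all polymerase subunits, SUPT4H1, SUPT5H, SUPT6H, SUPT16H, TAF1, MED1, MED12, MED13, MED14 and the paralog pairs. Members named to complete a count of 5 or fewer, and CDC73, SSRP1, CCNH and CDK9, were picked after their values were seen.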

Additional observations from a re-analysis of the deposited data

Results flagged for a closer look

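Among the 49 members named by the rule, each stage with 4 libraries (2C, 8C and ExpB) was searched for a library far from the other 3, by the gap to its neighbour over the whole range. Of 147 groups of 4 values 13 passed, and chance alone passes about 1 in 20.

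In 4 of them the library was 2C replicate 1: POLR2F at 97.95 FPKM beside 74.9 to 75.8, POLR2I at 43.36 beside 27.15 to 28.9, MED12L at 7.8 beside 9.24 to 9.48 and TAF1A at 93.17 beside 122 to 124. At 8C, replicate 1 had 20.11 FPKM of MED17 beside 15.6 to 16.0, replicate 2 had 22.94 of POLR2I beside 17.9 to 18.7, and replicate 4 had 36.03 of SUPT16H beside 40.8 to 40.9 and 12.04 of TAF4 beside 7.79 to 8.33.

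In expanded blastocysts, replicate 1 had 26.75 FPKM of POLR2L beside 16.4 to 17.3 and 18.74 of SUPT16H beside 23.0 to 23.7. Replicate 2 had 35.99 of TAF7 beside 25.7 to 26.5. Replicate 4 had 6.52 of GTF2A1L beside 2.84 to 3.21 and 3.308 of MED20 beside 2.05 to 2.15. In POLR2L and GTF2A1L the outlying value stayed on its own side of the gap between the groups before and after activation.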

How the results depend on the processing

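Counts are of members called among the 83 tested. After against before activation, 21 were higher under the main settings (15 to 26 under 36 others) and 19 lower, with 31 lower on the TPM scale, 7 with Morula alone as the stage after, and 21 to 22 higher and 19 lower when any library was left out. From MII to 2C the higher count of 2 became 5 with a pseudocount of 0.1, 4 on the TPM scale, 4 with only these stages fitted, and 1 to 3 with a library left out, when the lower count was 1 to 6. From 4C to 8C the higher count of 2 became 0 with only these stages fitted and 0 to 4 with a library left out. From 4C to 16C, 6 to 10 were higher with a library left out, and the lower count of 1 became 2 with a pseudocount of 0.1, 0 without a filter, 3 on the TPM scale, 0 with a replicate block, 0 with only these stages fitted and 0 to 3 with a library left out. From 16C to Morula, 25 higher became 16 with quantile normalization, and 8 lower became 16 on the TPM scale and 13 with quantile normalization. From Morula to ExpB, 2 higher became 1 on the TPM scale and 1 to 2 with a library left out. The MED12 over MED12L change of -0.66 was 0.0267 (reversed in sign) with a pseudocount of 0.1 and -0.17 on the TPM scale (adjusted p = 0.65, exact permutation test), and the other pairs kept their side of the threshold. The cause of these shifts was not tested.

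Replicate numbers did not pair the libraries: deviations of libraries with the same number correlated with a median of 0.0044 (80 pairs, 13 over 0.1) and those with different numbers with -0.0048. With the replicate block 21 members were higher and 19 lower after activation, as without it, and no other count but that from 4C to 16C moved by over 1.5 times. Low depth and the pseudocount weigh most on members around 1 FPKM or below, such as MED12, TAF6 and MED22.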
